A study of Mus musculus with 15 samples.

Results

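The genes described here fold proteins in the endoplasmic reticulum (ER), clear those that fail to fold, or signal when folding falls behind. They are 38 genes listed by name for their known function. The rule uses no measured value, but the list was drawn up with earlier results of these data known. Each was read from the probe set annotated to that gene alone, and from the brightest one where a gene had several. In this way 37 of the 38 were measured, among 22180 genes in all. The disulfide isomerase gene Pdia4 was not measured, because its probe set is shared with other annotated genes. Derl2, Edem1 and Sec61b had a second, dimmer probe set.

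RNA came from kidneys of 15 mice, each about 6 months old. The 7 wild-type mice (Grhl1+/+) are replicates 1 to 7 and the 8 knockout mice (Grhl1-/-) are replicates 8 to 15. The deleted gene, Grhl1, codes for a transcription factor of the grainyhead family, which acts in epithelial cells. The sources used here do not give the strain, the deleted part of the gene, or whether every tissue carries the deletion. Values are log2 summaries per probe set from robust multi-array average (RMA), a method that subtracts background, equalises the arrays and combines the probes of a set. Differences are knockout minus wild type on this log2 scale, and each group is summarised by its mean ± SD (n = 7 for wild type, n = 8 for knockout). The test is limma over all 23521 probe sets with 1 gene symbol, with Benjamini-Hochberg adjusted p-values over all of them and a threshold of 0.05. All tests are two-sided. In whole kidney RNA, fewer cells of a type and less RNA per cell cannot be told apart.

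Proteins that enter the secretory pathway are threaded through the Sec61 channel and folded by the HSP70 chaperone BiP (Hspa5), its co-chaperones, the lectins calreticulin and calnexin, and disulfide isomerases. Proteins that stay misfolded are sent back to the cytosol by ER-associated degradation. When misfolded proteins accumulate, the sensors PERK (Eif2ak3), IRE1 (Ern1) and ATF6 start the unfolded protein response. PERK slows translation and favours ATF4, IRE1 splices the Xbp1 messenger RNA, and ATF6 is cut to release a transcription factor, so that chaperone and degradation genes are induced. Kidney tubule cells make large amounts of membrane and secreted protein and depend on this machinery.

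The promoters of many of these genes carry a shared sequence through which ATF6 and XBP1 act, the ER stress element, which reads CCAAT, then 9 bases, then CCACG. RefSeq promoter windows of the build GRCm38.p6, from 250 bases before to 50 bases after the start of transcription, were given for 31 of the 38 genes, 3 of them with 2 windows. Exact matches on either strand were counted, and a gene counted where any of its windows held one. The ER stress element was found in 9 of these 31 genes (29.0%) and in 37 of all 27025 genes with a window (0.137%). The 9 were Hspa5, Hsp90b1, Creld2, Pdia6, Dnajc3, Calr, Canx, Syvn1 and Derl3, and Hsp90b1 held 2. The related ER stress element II, which reads ATTGG, then 1 base, then CCACG, was found in Herpud1 and Dnajb11 (6.45%, against 0.0444% of all genes). The unfolded protein response element TGACGTGG was found in 1 of the 31, Txndc11 (3.23%, against 0.714%). The C/EBP-ATF element TGATGCAA, the kind through which ATF4 acts, was found in 1, Herpud1 (3.23%, against 1.03%). Matches of different motifs did not overlap in any of these windows. A match is a description of the sequence and not a measured binding site.

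The stretches below show these elements in the promoters of genes whose kidney values are described next. The matched letters are in capitals with 20 bases on each side, 5′ to 3′ on the gene's strand. CGTGG followed by ATTGG after 9 bases is the ER stress element on the opposite strand. The Herpud1 line shows element II and the Txndc11 line the unfolded protein response element.
Hspa5, chr2:34772005-34772063, plus strand: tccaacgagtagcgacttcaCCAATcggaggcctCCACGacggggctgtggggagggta
Hsp90b1, chr10:86705618-86705676, minus strand: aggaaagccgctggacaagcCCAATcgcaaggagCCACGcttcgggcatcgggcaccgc
Hsp90b1, chr10:86705513-86705571, minus strand: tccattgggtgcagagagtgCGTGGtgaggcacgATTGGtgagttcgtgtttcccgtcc
Creld2, chr15:88819500-88819558, plus strand: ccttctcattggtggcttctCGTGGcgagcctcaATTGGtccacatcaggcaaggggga
Pdia6, chr12:17266471-17266529, plus strand: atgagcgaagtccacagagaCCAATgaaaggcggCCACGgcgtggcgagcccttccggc
Calr, chr8:84847055-84847113, minus strand: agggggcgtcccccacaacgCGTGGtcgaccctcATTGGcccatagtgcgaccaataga
Canx, chr11:50325780-50325838, minus strand: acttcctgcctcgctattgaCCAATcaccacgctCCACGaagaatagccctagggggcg
Syvn1, chr19:6046512-6046570, plus strand: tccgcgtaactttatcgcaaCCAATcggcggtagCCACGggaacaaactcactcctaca
Herpud1, chr8:94386357-94386407, plus strand: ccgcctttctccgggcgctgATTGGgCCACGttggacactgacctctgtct
Txndc11, chr16:11134607-11134654, minus strand: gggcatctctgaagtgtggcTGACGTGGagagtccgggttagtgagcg
The elements of Dnajc3, Derl3 and Dnajb11 are not printed, and that of Dnajb11 began 7 bases after the start of transcription. Those printed began between 212 bases (the first of Hsp90b1) and 44 bases (Syvn1) before the start of transcription. Hspa5 carried its element 65 bases before the start.

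The array checks bear on what follows. Grhl1 itself lay between 4.96 and 5.25 in wild-type and between 4.40 and 4.92 in knockout kidneys, without overlap (difference -0.38, SE 0.07, limma adjusted p = 0.113, exact permutation p = 0.000311). Kidney markers such as Umod and Slc34a1 were high in all samples, with list means from 11.85 to 12.01 and 0 of 11 genes past the threshold. Of the 15 samples, 10 held Y-linked transcripts, 5 per genotype. The exceptions were replicates 6 and 7 among wild-type and replicates 13, 14 and 15 among knockout mice. Liver transcripts stood out in 3 samples (replicates 3 and 7, wild type, and replicate 10, knockout). Adrenal cortex transcripts did so in 6 (replicates 2 and 3, wild type, and replicates 10 to 13, knockout). Results are therefore also given within or without these samples.

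Most of the ER genes had lower means in knockout kidneys, and none passed the threshold. Of the 37 genes, 33 had a difference below 0, against 45.3% of all genes measured. The median difference was -0.14, where the median of all 23521 probe sets was 0.0083. In limma 0 of 37 had an adjusted p under 0.05, where 3 of 23521 probe sets did (0.0128%). At an unadjusted p under 0.05, 14 of the 37 were lower and 0 were higher, against 2.06% of all probe sets lower and 3.49% higher. The exact rank-sum test also called 0 of them after adjustment, and 0 of all probe sets. At an unadjusted rank-sum p under 0.05, 11 of the 37 were lower, where 1157 of 23521 probe sets passed in either direction. In 2 of 37, Dnajb9 and Herpud1, the groups did not overlap, against 0.123% of all probe sets. Without the 3 samples with liver transcripts, 12 of 37 were lower at an unadjusted p under 0.05 (2.21% of all probe sets). The median of the 37 was then -0.13, from 5 wild-type and 7 knockout mice. Without the 6 samples with adrenal transcripts, 4 of 37 were lower at that p (1.599%) and the median was -0.07, from 5 wild-type and 4 knockout mice. In the 5 samples without Y-linked transcripts 6 were lower (2.83%), Trib3 was higher at that p, and the median was -0.06. With the mean level of cytosolic heat shock chaperones as a covariate, described further on, 0 had an unadjusted p under 0.05 (3.35% of all probe sets were lower), 15 were below 0 and the median was 0.07.

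**Figure D1:**
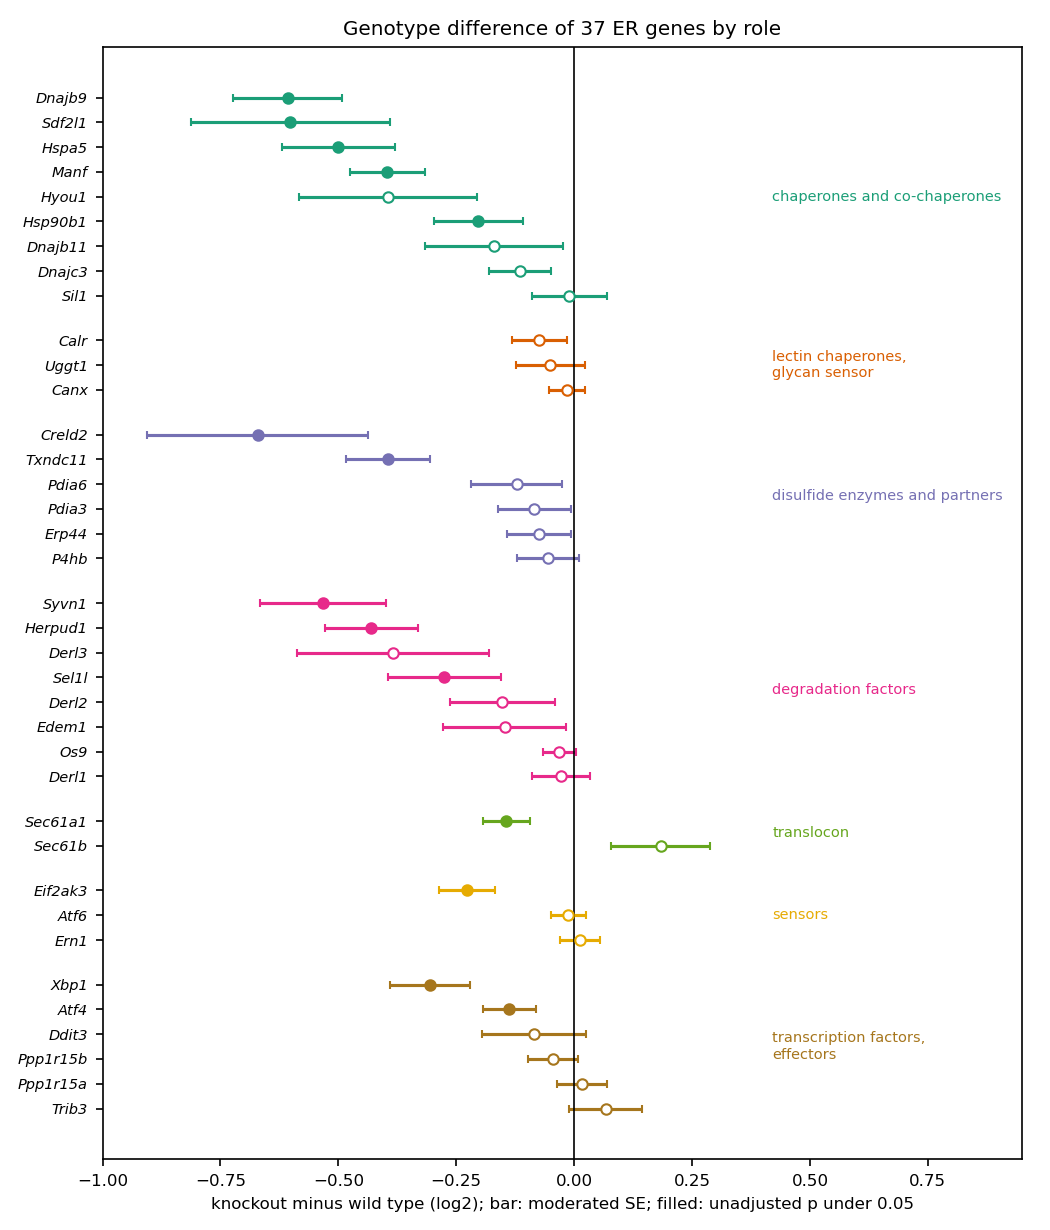
Genotype difference of the 37 measured ER genes, knockout minus wild type on the log2 scale, grouped by role. Points are estimates, bars the moderated standard error, and filled points have an unadjusted p under 0.05 in limma; the filled points run from Creld2 at -0.67 to Atf4 at -0.14, and 4 genes lie above 0.

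The 9 measured chaperones and co-chaperones all had differences below 0, against 45.3% of all genes, with a median difference of -0.40. Hspa5 encodes BiP, the central ATP-driven chaperone of the ER and the protein that holds the sensors inactive. Its values ran from 9.82 through a median of 10.27 to 10.61 in wild-type kidneys and from 9.42 through 9.70 to 10.03 in knockout kidneys. Only wild-type replicates 6 and 7 read within the knockout range, and each of the 8 knockout kidneys lay below the wild-type mean. The means, 10.18 ± 0.29 and 9.68 ± 0.21, lay -0.50 apart (SE 0.12, 1.41-fold lower, exact permutation p = 0.00249, limma adjusted p = 0.361).

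Dnajb9 encodes ERdj4, a J-domain co-chaperone that recruits BiP to IRE1 and to misfolded proteins. Its values ran from 10.22 through 10.45 to 10.99 in wild-type and from 9.79 through 9.99 to 10.19 in knockout kidneys. The lowest wild-type kidney, replicate 5, lay just above the highest knockout kidney, replicate 9, so that the groups touched without overlapping. Wild-type replicates 1, 2 and 3 stood apart at 10.88, 10.93 and 10.99. The difference was -0.61 (SE 0.12, 1.52-fold lower, limma adjusted p = 0.138). Its exact permutation p of 0.000155 is the smallest that the 6435 splits can give. Dnajb9 lies on chromosome 12 as Grhl1 does, 89 places away in the order of measured genes, and the effect of the knockout and of alleles linked to Grhl1 cannot be told apart there. Pdia6, 24 places away, is the nearest of the ER genes to Grhl1, and Sel1l lies 389 places away.

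Manf, a secreted BiP-binding factor that protects stressed cells, lay between 6.94 and 7.37 in wild-type (median 7.21) and between 6.54 and 7.05 in knockout kidneys (median 6.72). Only knockout replicates 8 and 9 reached the wild-type range. Its difference was -0.40 (SE 0.08, limma adjusted p = 0.181, exact permutation p = 0.00109). Sdf2l1, which works with the J-domain protein encoded by Dnajb11 to keep unfolded proteins soluble, spread more widely. It ran from 8.98 through 9.71 to 10.45 in wild-type and from 8.57 through 9.09 to 9.54 in knockout kidneys. Its difference was -0.60 (SE 0.21, limma adjusted p = 0.736, exact permutation p = 0.0235), and 2 of 8 knockout kidneys lay below every wild-type kidney.

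Hsp90b1, the ER form of HSP90 known as GRP94, was at 11.88 ± 0.21 in wild-type and 11.67 ± 0.17 in knockout kidneys (difference -0.20, SE 0.09, limma adjusted p = 0.896). Its values ran from 11.57 through 11.94 to 12.10 and from 11.42 through 11.66 to 11.91, and the groups overlapped broadly. Hyou1, a large HSP70 relative that exchanges the nucleotide of BiP, differed by -0.40 but with an SE of 0.19 (unadjusted p = 0.0529). The J-domain proteins Dnajb11 (-0.17, SE 0.15) and Dnajc3 (-0.11, SE 0.07) did not reach an unadjusted p under 0.05. Sil1, the other exchange factor of BiP, was at -0.01 (SE 0.08), and its sign turned when any of 6 samples was left out (replicates 2, 4 and 5, wild type, and replicates 13, 14 and 15, knockout).

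**Figure D2:**
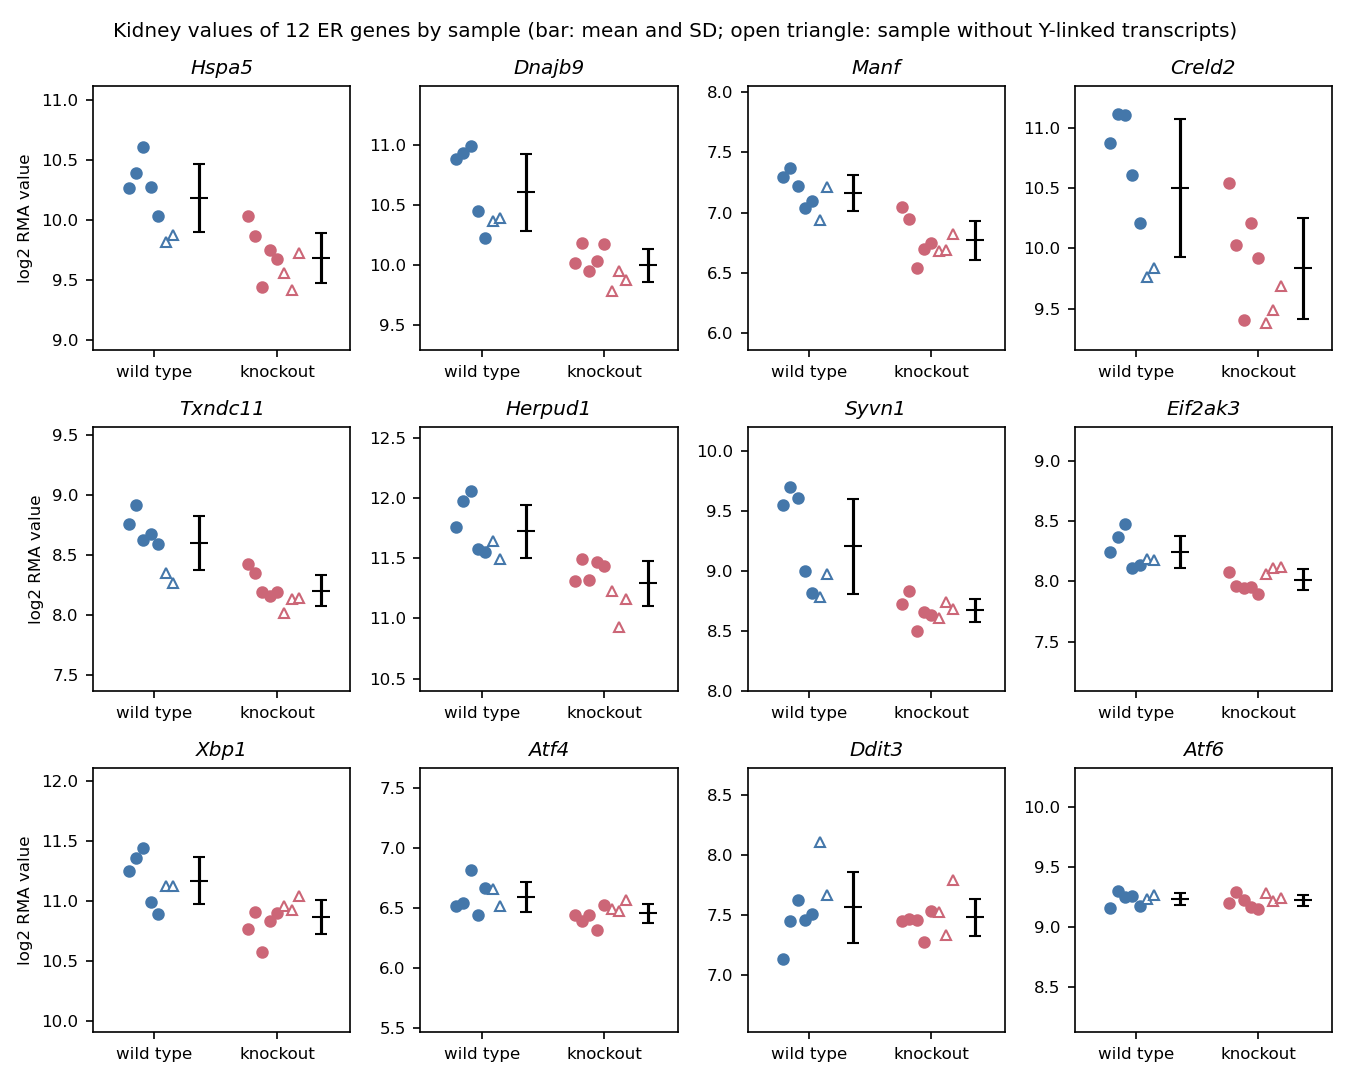
Values of 12 ER genes in each kidney, as log2 RMA values on axes of equal span; filled circles are samples with Y-linked transcripts, open triangles those without, and bars the mean and SD of 7 wild-type and 8 knockout mice. Dnajb9 and Herpud1 separate without overlap, Syvn1 has wild-type replicates 1, 2 and 3 at 9.55 to 9.70 and the other wild-type kidneys at 8.78 to 8.999, and Atf6 and Ddit3 overlap.

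Lectin chaperones differed little. Calr, which encodes calreticulin, differed by -0.07 (SE 0.06), Canx, which encodes calnexin, by -0.02 (SE 0.04), and Uggt1, the enzyme that tags misfolded glycoproteins for another folding round, by -0.05 (SE 0.07). All 3 lay below 0, against 45.3% of all genes, and none had an unadjusted p under 0.05. The promoters of Calr and Canx hold the same ER stress element as Hspa5.

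The 6 measured disulfide enzymes and their partners were all below 0, against 45.3% of all genes. Their median was -0.10, and 2 of them accounted for the lowest values. Txndc11, a thioredoxin-domain protein of the ER membrane, ran from 8.27 through 8.63 to 8.91 in wild-type and from 8.02 through 8.18 to 8.43 in knockout kidneys. Wild-type replicates 6 and 7 were the 2 that read within the knockout range. Its difference was -0.39 (SE 0.09, 1.31-fold lower, limma adjusted p = 0.333, exact permutation p = 0.00155). With the mean of the Y-linked genes as a covariate it was -0.38 (SE 0.06), and its adjusted p of 0.0415 was then the 1 below the threshold among the 37, in a fit that called 14 of 23521 probe sets. Under the same covariate Dnajb9 was at -0.59 with an adjusted p of 0.0510.

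Creld2, an ER stress-induced protein with disulfide isomerase activity, had the largest difference of the 37 and a wide spread. It ran from 9.77 through 10.61 to 11.12 in wild-type and from 9.38 through 9.80 to 10.55 in knockout kidneys, a difference of -0.67 (SE 0.23, limma adjusted p = 0.736, exact permutation p = 0.0244). Wild-type replicates 6 and 7, at 9.77 and 9.83, were as low as the middle of the knockout group, and knockout replicate 8, at 10.55, lay above the wild-type mean of 10.50. The abundant isomerases were close to 0, with Pdia6 at -0.12 (SE 0.10), Pdia3 at -0.08 (SE 0.08), P4hb at -0.06 (SE 0.07) and the thiol-retention factor Erp44 at -0.07 (SE 0.07).

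All 8 degradation factors lay below 0 (median -0.21), against 45.3% of all genes. At an unadjusted p under 0.05, 3 were lower, against 2.06% of all probe sets. Herpud1, a membrane protein that assembles the degradation complex, was lower in every knockout kidney than in any wild-type kidney. Its values ran from 11.50 through 11.64 to 12.06 in wild-type and from 10.93 through 11.32 to 11.49 in knockout kidneys. The gap between the groups was narrow. The difference was -0.43 (SE 0.10, 1.35-fold lower, limma adjusted p = 0.361, exact permutation p = 0.000155). Syvn1, the ubiquitin ligase HRD1 of that complex, ran from 8.78 through 8.999 to 9.70 in wild-type and from 8.50 through 8.67 to 8.83 in knockout kidneys. The wild-type kidneys themselves split, with replicates 1, 2 and 3 at 9.55, 9.70 and 9.61 and the other 4 at 8.78 to 8.999. The SD was 0.40 in wild-type and 0.10 in knockout kidneys, and the difference was -0.53 (SE 0.13, limma adjusted p = 0.381, exact permutation p = 0.000466).

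Sel1l, the scaffold that holds HRD1, ran from 9.63 through 10.17 to 10.35 in wild-type and from 9.50 through 9.80 to 9.99 in knockout kidneys. The groups overlapped and differed by -0.27 (SE 0.12, unadjusted p = 0.0351, exact permutation p = 0.0533). Derl3, a derlin of the retrotranslocation channel with high levels in secretory cells, differed by -0.38 with an SE of 0.20. The other derlins were at -0.15 (Derl2, SE 0.11) and -0.03 (Derl1, SE 0.06). The mannosidase-like Edem1 was at -0.15 (SE 0.13, limma unadjusted p = 0.278). Its dimmer probe set, with a mean of 4.58, lay the other way at 0.13 (limma unadjusted p = 0.0304). The lectin Os9 was at -0.03 (SE 0.03). In the translocon, Sec61a1, the pore subunit, ran from 11.36 through 11.54 to 11.61 in wild-type and from 11.26 through 11.37 to 11.47 in knockout kidneys. The groups overlapped, and the difference was -0.14 (SE 0.05, limma adjusted p = 0.736, exact permutation p = 0.00979), with all 8 knockout kidneys below the wild-type mean. Sec61b, a small subunit beside the pore, was at 0.18 (SE 0.10), the highest difference of the 37, and its dimmer probe set was at -0.04. The brighter set was itself dim, at 5.48 ± 0.27 in wild-type and 5.66 ± 0.16 in knockout kidneys, beside array medians of 5.51 to 5.59.

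The sensors and their effectors gave a mixed picture. Eif2ak3, which encodes PERK, was the 1 sensor of 3 with an unadjusted p under 0.05. It ran from 8.11 through 8.18 to 8.48 in wild-type and from 7.89 through 8.01 to 8.12 in knockout kidneys, with 6 of 8 knockout kidneys below every wild-type kidney. The difference was -0.23 (SE 0.06, 1.17-fold lower, limma adjusted p = 0.451, exact permutation p = 0.000466). Atf6 (-0.01, SE 0.04) and Ern1 (0.01, SE 0.04) lay near 0, Atf6 from 9.16 to 9.30 in wild-type and from 9.15 to 9.29 in knockout kidneys, and Ern1 from 9.04 to 9.20 and from 8.98 to 9.26.

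Xbp1, the transcription factor made active by IRE1, ran from 10.89 through 11.13 to 11.44 in wild-type and from 10.58 through 10.90 to 11.04 in knockout kidneys. The difference was -0.31 (SE 0.08, 1.24-fold lower, limma adjusted p = 0.508, exact permutation p = 0.00295), and all 8 knockout kidneys lay below the wild-type mean. The array value does not separate the spliced from the unspliced form. Atf4, the factor whose translation PERK signalling favours, was at 6.60 ± 0.12 against 6.46 ± 0.08 (difference -0.14, SE 0.06, limma adjusted p = 0.826, exact permutation p = 0.0190), with values from 6.45 through 6.54 to 6.81 and from 6.32 through 6.46 to 6.57. Ddit3, the stress-induced factor CHOP, ran from 7.14 through 7.51 to 8.11 in wild-type and from 7.27 through 7.46 to 7.79 in knockout kidneys. Its groups overlapped, and the difference was -0.08 (SE 0.11), or 0.0057 without wild-type replicate 6, the highest kidney. Trib3, a pseudokinase induced by CHOP, overlapped too, from 5.46 through 5.66 to 5.88 and from 5.48 through 5.72 to 5.93 (difference 0.07, SE 0.08). The phosphatase subunits that undo PERK signalling, Ppp1r15a (0.02, SE 0.05) and Ppp1r15b (-0.04, SE 0.05), lay near 0, and Ppp1r15a turned sign without wild-type replicate 4 or knockout replicate 14.

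For the arms of the response, target genes were assigned from textbook knowledge, although arms share targets in part. No gene was counted in several arms, and Syvn1 and Sdf2l1 were among those in none. The measured ATF6 arm was Atf6, Hspa5, Hsp90b1, Calr, Herpud1, Creld2, Manf, Hyou1 and Sel1l. All 9 were below 0, against 45.3% of all genes (median -0.40). At an unadjusted p under 0.05, 6 were lower, against 2.06% of all probe sets. The IRE1 arm was Ern1, Xbp1, Dnajb9, Edem1, Sec61a1, Sec61b, Derl1, Derl2, Dnajb11, Dnajc3 and Txndc11. Of these 11, 9 were below 0 (median -0.15), and 4 were lower at that p. The PERK arm was Eif2ak3, Atf4, Ddit3, Trib3, Ppp1r15a and Ppp1r15b. Of these 6, 4 were below 0 (median -0.06), and 2 were lower at that p. Whether the arms differ was not tested. Of the 9 measured genes with an ER stress element, 9 were below 0 with a median of -0.20, and of the 21 measured genes with a window and no such element, 17 were below 0 with a median of -0.14. Among 20 measured genes outside the list that hold the element, 10 were below 0 and the median was 0.0029.

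**Figure D3:**
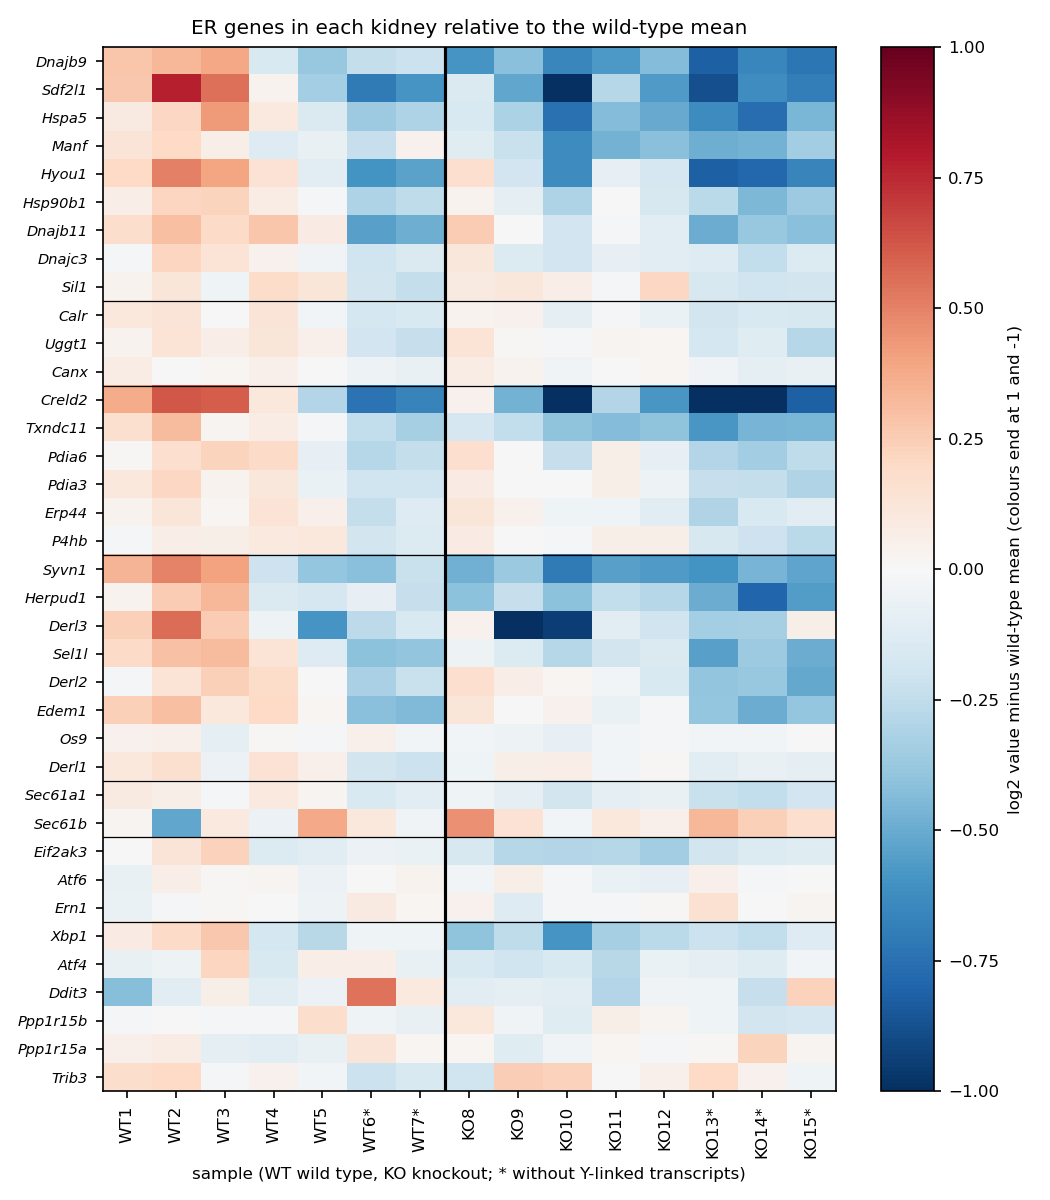
Each of the 37 ER genes (rows, by role) in each of the 15 kidneys (columns), as the log2 value minus the mean of the 7 wild-type mice; colours end at 1 and -1, and asterisks mark samples without Y-linked transcripts. Wild-type replicates 1 to 3 are above the wild-type mean for most chaperones, wild-type replicates 6 and 7 are below it, and knockout replicates 10, 13, 14 and 15 are the lowest.

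The kidneys also differed within each genotype, and many of the ER genes varied together. The mean over the 37 genes was highest in wild-type replicates 2 (9.75), 3 (9.72) and 1 (9.65) and lowest among wild-type kidneys in replicates 6 (9.37) and 7 (9.37), the 2 without Y-linked transcripts. In knockout kidneys it ran from 9.54 in replicate 8 to 9.27 in replicate 14, and replicates 13, 14 and 15, again without Y-linked transcripts, were at 9.28, 9.27 and 9.31. Wild-type replicates 6 and 7 thus lay within the knockout range. Wild-type replicates 2 and 3 held adrenal transcripts and replicate 3 liver transcripts too. Of the 4 knockout kidneys with adrenal transcripts, replicates 10 and 13 were at 9.30 and 9.28 and replicates 11 and 12 at 9.43 and 9.42.

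Within the 10 samples with Y-linked transcripts, 17 of 37 genes were lower at an unadjusted p under 0.05, against 3.52% of all probe sets, and the median was -0.15. Within the 5 samples without them, 2 wild-type and 3 knockout, 6 were lower, against 2.83% of all probe sets, and the median was -0.06. Dnajb9 was at -0.62 in the first set and -0.50 in the second, and Herpud1 at -0.38 and -0.46. Manf was at -0.41 and -0.35. Other genes read lower in size in the second set, with Sdf2l1 at -0.78 and -0.08, Syvn1 at -0.66 and -0.21, and Creld2 at -0.76 and -0.28. Trib3 was at -0.0073 and 0.25, higher in knockout kidneys of the second set (limma unadjusted p = 0.0402). Whether the 2 sets differ was not tested. Without the samples with adrenal transcripts, Dnajb9 was at -0.45, Herpud1 at -0.38, Hspa5 at -0.29, Syvn1 at -0.28 and Sdf2l1 at -0.23.

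To describe how the genes varied together beyond the genotype means, each of the other 23520 probe sets was fitted in limma on genotype and the Hspa5 level. The slope gives the log2 units by which a gene differed per log2 unit of Hspa5. Of the 36 other ER genes 31 had a slope above 0. The share of all probe sets with a slope above 0 is not given here, so the 31 have no comparison. Of the 36, 6 were positive with an adjusted p under 0.05, where 0.128% of all probe sets were. None was negative, where 0.0680% of all probe sets were. Creld2 had a slope of 1.89 (SE 0.19, adjusted p = 0.00104), Sdf2l1 1.59 (SE 0.23, adjusted p = 0.0155) and Hyou1 1.45 (SE 0.20, adjusted p = 0.00943). A slope above 1 means that a gene differed between kidneys by more than Hspa5 did. Sel1l had a slope of 0.85 (SE 0.15, adjusted p = 0.0380), Pdia6 0.72 (SE 0.11, adjusted p = 0.0155) and Hsp90b1 0.69 (SE 0.11, adjusted p = 0.0270).

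Sensors and transcription factors had these slopes, none past the threshold. Xbp1 was at 0.30 (SE 0.17), Eif2ak3 at 0.21 (SE 0.12), Atf4 at 0.03 (SE 0.12), Atf6 at 0.01 (SE 0.08) and Ddit3 at -0.30 (SE 0.24). The count of slopes past the threshold rested on few samples. It was 1 (0.0043% of all probe sets) without wild-type replicates 2 and 3, whose Hspa5 values lay furthest from the median of all 15 kidneys. Distance from the group means, which bears on a slope at fixed genotype, was not used to choose them. Leaving out wild-type replicate 6 gave 1 (0.0043%), wild-type replicate 7 gave 2 (0.026%) and knockout replicate 8 gave 1 (0.0085%). Without knockout replicate 10 it was 16 (2.71%), and without the 3 samples with liver transcripts 15 (1.875%). With a covariate for the Y-linked mean it was 1 (0.0085%). The number of slopes above 0 was 30 or 31 in these fits, again without the share of all probe sets to set it beside.

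**Figure D4:**
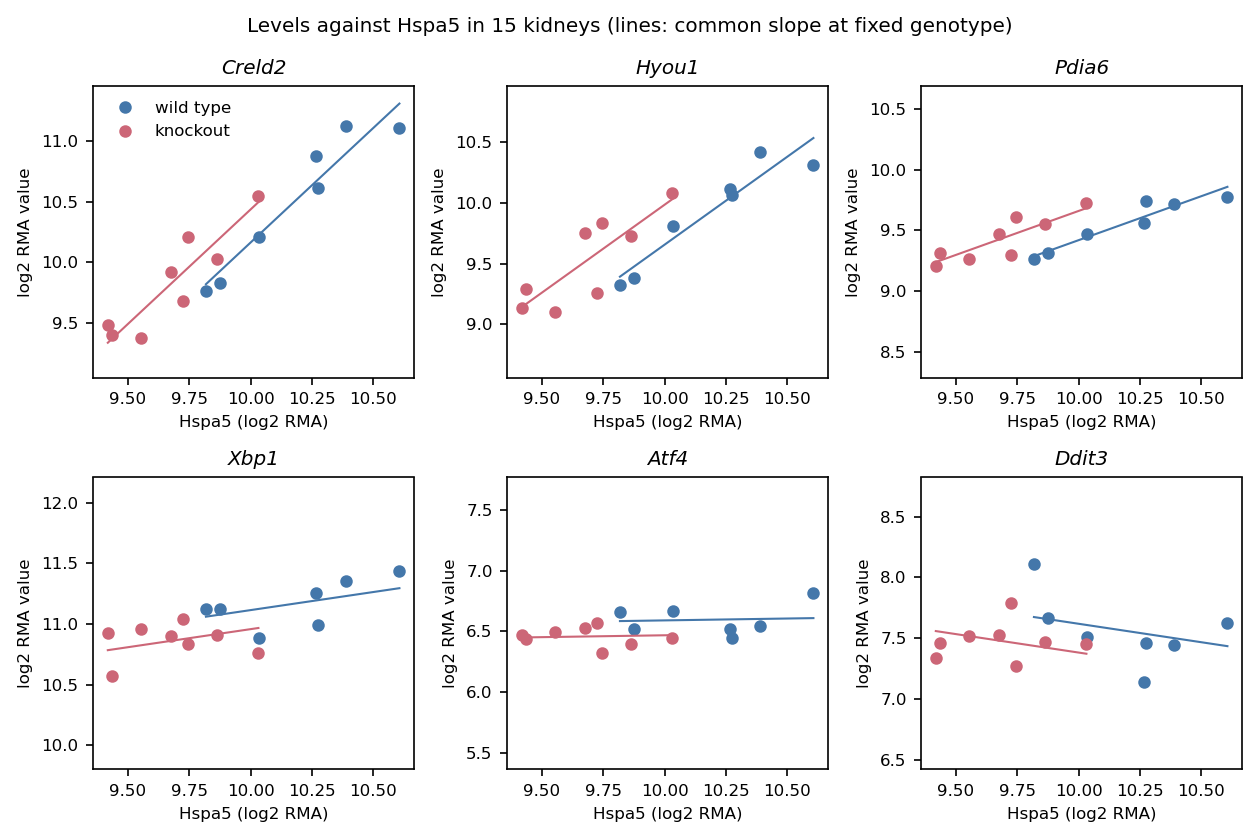
Levels of 6 ER genes against the Hspa5 level in 15 kidneys, in log2 RMA values, wild type in blue and knockout in red; lines have the common slope at fixed genotype and pass through each group's mean. Creld2, Hyou1 and Pdia6 follow Hspa5 with slopes of 1.89, 1.45 and 0.72, and Atf4 has a slope of 0.03.

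Other genes of the secretory pathway were set beside the 37. In 6 further lists 170 of 183 genes were measured, and 116 were below 0 (68.2%, against 45.3% of all genes). At an unadjusted p under 0.05, 17 were lower and 4 higher, against 2.06% and 3.49% of all probe sets. The adjusted threshold was passed by 0, and the median was -0.03. Translocation and N-glycosylation genes were below 0 in 30 of 34 (median -0.06), among them Alg2, a mannosyltransferase (-0.22, SE 0.06), and Spcs2, a signal peptidase subunit (-0.17, SE 0.05). ER to Golgi transport genes were below 0 in 25 of 30 (median -0.04), with the coat subunits Sec24c at -0.15 (SE 0.05) and Sec31a at -0.10 (SE 0.04). Other degradation factors were below 0 in 18 of 26 (median -0.02), and Selenos, a selenoprotein of the derlin complex, was at -0.21 (SE 0.08). Erlin1, a membrane protein that directs degradation of sterol-regulated proteins, lay the other way at 0.31 (SE 0.10).

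Other folding enzymes were below 0 in 16 of 28 (57.1%, against 45.3% of all genes, median -0.01). The isomerase Pdia5 was at -0.25 (SE 0.07) and the collagen chaperone Serpinh1 at -0.22 (SE 0.07). Targets of ATF4 were below 0 in 13 of 25 (52%, median -0.0053). Sesn2, a stress-induced regulator of growth signalling, was at -0.25 (SE 0.07) and the folate enzyme Mthfd2 at -0.18 (SE 0.10). Other sensors and regulators were below 0 in 14 of 27 (51.9%, median -0.00072). The ER calcium pump Atp2a2 was at -0.20 (SE 0.06) and the double-stranded RNA kinase Eif2ak2 at 0.17 (SE 0.06). The limma adjusted p of these 12 genes ranged from 0.507 (Pdia5) to 0.951 (Mthfd2).

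Chaperones and co-chaperones of the cytosol (with the mitochondrial pair Hspd1 and Hspe1), which answer to heat shock factor rather than to the ER sensors, were examined in the same kidneys. Of 18 measured, 17 were below 0, against 45.3% of all genes, and the median was -0.26. At an unadjusted p under 0.05, 11 were lower, against 2.06% of all probe sets. The groups did not overlap in 2, against 0.123%, and 0 passed the adjusted threshold. Hspa1b, the inducible HSP70, ran from 9.32 through 10.02 to 11.47 in wild-type and from 8.26 through 8.73 to 9.10 in knockout kidneys (difference -1.47, SE 0.31, limma adjusted p = 0.244). Hspa8, the constitutive HSP70, ran from 12.83 through 12.91 to 13.01 and from 12.55 through 12.69 to 12.80 (difference -0.23, SE 0.05, limma adjusted p = 0.222). The mean of these 18 genes lay between 9.09 and 9.70 in wild-type and between 8.85 and 9.17 in knockout kidneys. With that mean as a covariate, 15 of the 37 ER genes were below 0, 0 had an unadjusted p under 0.05, and their median was 0.07. Hspa5 was then at -0.02, Dnajb9 at -0.18, Herpud1 at -0.06, Manf at -0.19 and Creld2 at 0.31. The part of the cytosolic chaperones in the ER result was not tested further.

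**Figure D5:**
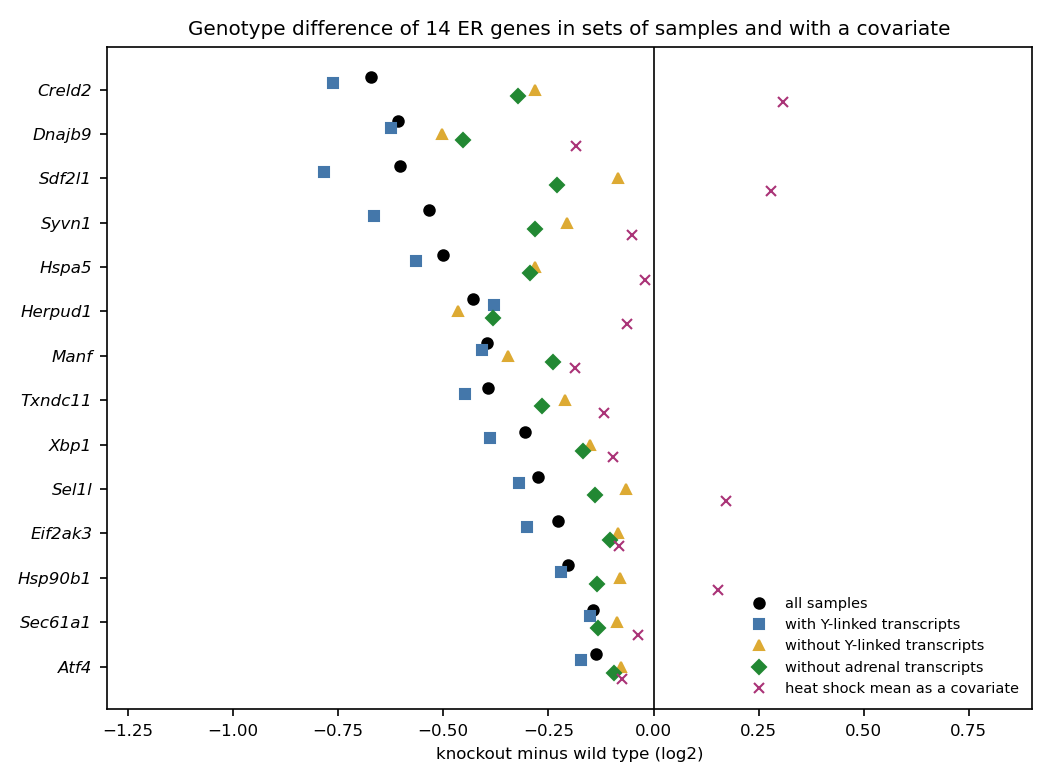
Genotype difference (log2) of the 14 ER genes with an unadjusted p under 0.05, in all 15 samples, in the 10 with and the 5 without Y-linked transcripts, in the 9 without adrenal transcripts, and in all samples with the mean of the cytosolic heat shock chaperones as a covariate. Dnajb9 stays between -0.62 and -0.45 across the sets of samples and is at -0.18 with the covariate, where Creld2 is at 0.31.

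Markers of plasma cells and pancreatic acinar cells, which hold much ER, were examined beside these genes, and so were brown fat markers. All 9 plasma cell markers were below 0 in knockout kidneys, against 45.3% of all genes. At an unadjusted p under 0.05, 3 were lower, against 2.06% of all probe sets, and 0 passed the adjusted threshold. List means ran from 6.54 to 7.22 in wild-type and from 6.19 to 7.46 in knockout kidneys. Jchain was at -0.996, Ighm at -1.19 and Tnfrsf17 at -0.36, while Sdc1 was at -0.06 and Prdm1 at -0.02. With the plasma cell mean as a covariate, Derl3 was at -0.18, Xbp1 at -0.22, Hspa5 at -0.46 and Dnajb9 at -0.62. Markers of pancreatic acinar cells had list means from 5.29 to 5.54 over all samples, beside array medians of 5.51 to 5.59. Brown fat markers had list means from 7.68 to 8.22 in wild-type and from 7.97 to 8.69 in knockout kidneys. They were above 0 in 9 of 9, where 45.3% of all genes were below 0. Of these, 3 had an unadjusted p under 0.05 (3.49% of all probe sets were higher) and 0 passed the threshold. Ucp1 was at 1.28 and Elovl3 at 1.32, while Cox7a1 was at 0.05, Fabp3 at 0.04, Ppargc1a at 0.03 and Adipoq at 0.03. Their part in the result was not tested.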

How the data were processed

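Kidney RNA of 15 mice was measured on 1-colour expression arrays. Per the labels' protocols, 500 ng of total RNA was labelled with a whole-transcript kit and biotin. The deposited table holds 1 log2 value per probe set and array, named as RMA per the submitters' processing notes and as log2 from the values. RMA sets all arrays to the same distribution, so a shift shared by most transcripts would not be seen, and it understates differences of dim probe sets. The RMA software, its version and the array's build are not given in the sources used here. Scanner files were not used here.

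Of 41345 probe sets, 23521 had 1 gene symbol, 1814 had several and 16010 were unnamed. Symbols were updated by Entrez ID to RefSeq names (GRCm38.p6) for 23328. Array medians lay between 5.51 and 5.59, pairwise correlations between 0.976 and 0.991, and no 2 arrays were identical. Each array is taken as 1 animal from the series' count of mice, and precision is limited by how many there are. The sources used here give neither litter nor batch.

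The genotype test used limma 3.58.1 (lmFit and eBayes, R 4.3.3) without covariates, and single genes by an exact permutation test over 6435 splits. The fit was tested on simulated data. Samples counted as holding liver or adrenal transcripts had a list mean more than 1 log2 unit above the median of all samples. All 38 genes are accounted for, with ranges or values by group for those at an unadjusted p under 0.05 and for the sensors and factors. From each other list the 2 genes with the smallest unadjusted p are named where none passed. Genes, lists and tests were chosen with earlier results of these data known. Alternatives tried were other variance, scaling, weights, filters, probe set choices, covariates and sets of samples, and each sample left out. The plasma cell and heat shock covariates were added after the data were seen.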

Additional observations from a re-analysis of the deposited data

Results flagged for a closer look

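In 3 of 74 sets of values, 37 genes in each of 2 groups, a single sample stood apart from the rest of its group by Dixon's gap test, which chance alone flags in about 5% of sets. Dnajc3 was at 10.72 in knockout replicate 8, with the next knockout kidney at 10.53. Ppp1r15a was at 6.50 in knockout replicate 14, with the next at 6.30. Ppp1r15b was at 9.79 in wild-type replicate 5, with the next at 9.61.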

How the results depend on the processing

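The 37 ER genes had a median below 0 and 0 adjusted calls under most alternatives, with exceptions given here. With a covariate for the Y-linked mean, 1 gene passed the threshold. The count lower at an unadjusted p under 0.05 was 14 in all samples (2.06% of all probe sets). It was 6 in samples without Y-linked transcripts (2.83%) and 4 without samples holding adrenal transcripts (1.599%). With the heat shock chaperone mean as a covariate it was 0 (3.35%), and the median turned to 0.066. Leaving out 1 sample at a time gave 11 to 17 such genes, where 1.83% to 2.42% of all probe sets were lower at that p. These fits gave 0 adjusted calls among the 37 and medians from -0.17 to -0.097. The exact rank-sum test gives no median. The count of positive Hspa5 slopes past the threshold was 6 in all samples (0.128% of all probe sets). It was 1 without the 2 samples whose Hspa5 lay furthest from the median of all samples (0.0043%). Without samples holding liver transcripts it was 15 (1.875%). With the Y-linked covariate it was 1 (0.0085%), and with 1 sample left out 1 to 16 (0.0043% to 2.71%).

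The heat shock covariate, added after the data were seen, turned the sign of these genes: Sdf2l1 0.28, Creld2 0.31, Hsp90b1 0.15, Calr 0.066, Canx 0.055, Pdia3 0.13, Pdia6 0.22, P4hb 0.091, Dnajc3 0.12, Dnajb11 0.30, Hyou1 0.36, Ern1 -0.013, Edem1 0.23, Sel1l 0.17, Derl1 0.063, Derl2 0.15, Derl3 0.093, Ppp1r15a -0.019, Ppp1r15b 0.040, Sil1 0.13, Erp44 0.067 and Uggt1 0.15. In samples with Y-linked transcripts Trib3 turned to -0.0073, Ddit3 to 0.00080 and Sil1 to 0.0074. In samples without them Dnajc3 turned to 0.0034, Dnajb11 to 0.085, Edem1 to 0.0053, Derl1 to 0.11, Derl3 to 0.0025, Sil1 to 0.031 and Uggt1 to 0.014. Without samples holding adrenal transcripts Atf6 turned to 0.019, Ern1 to -0.012 and Erp44 to 0.0044. Sil1 was at 0.0097 with the Y-linked covariate and Ddit3 at 0.022 with the plasma cell covariate, also added after the data were seen. With 1 sample left out, Ddit3 ranged from -0.16 to 0.0057, Ern1 from -0.0086 to 0.032, Ppp1r15a from -0.014 to 0.038 and Sil1 from -0.050 to 0.020. The cause of these changes was not tested.

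No paired analysis was possible, because the labels name no pairs between the 2 genotypes and litter and batch are not given. Genotype differences near 0.1 on the log2 scale are close to the standard errors of most of these genes. All 37 passed the dim filter, among them Sec61b with a wild-type mean of 5.48 beside array medians of 5.51 to 5.59.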
